A study of Mus musculus with 6 samples.

Results

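Matrix metalloproteinases (Mmp genes), their tissue inhibitors (Timp genes), the ADAMTS proteases and the protease-dead ADAMTS-like genes (Adamtsl) were followed in whole hearts of 6 mice. Members were all genes of the deposited table whose symbol belongs to these families. That gave 43 genes of 26493 symbols in 25901 rows, made up of 18 Mmp, 4 Timp, 16 Adamts and 5 Adamtsl genes. The hearts were 3 from SRAKO mice (SRAKO2365, SRAKO2371 and SRAKO2372) and 3 from wild-type mice (WT2368, WT2379 and WT2378), and all 6 mice had been given isoproterenol, a beta-adrenergic agonist, for 4 weeks. SRAKO mice are taken here, from the study title, to lack the steroid receptor RNA activator encoded by Sra1. The labels name neither the allele, the strain, the age nor the sex, and do not say whether every cell type lacked the gene. Hearts without isoproterenol were not analysed here. The comparison asks which of these genes differed with genotype under isoproterenol.

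Mmp enzymes are zinc endopeptidases that cut collagens, elastin, proteoglycans and many cytokines or receptors at the cell surface. They are made as inactive proenzymes, and Timp proteins block the active site once the propeptide is gone. ADAMTS enzymes carry thrombospondin repeats that hold them in the matrix, where they trim procollagens, versican and other proteoglycans, while ADAMTS-like proteins share the repeats but lack the protease domain and bind fibrillin microfibrils. In the heart these genes are best known for matrix turnover in hypertrophy, infarction and valve formation.

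Levels are FPKM, fragment counts scaled to transcript length and library size, as the authors deposited them. Sra1 itself was at 1.96, 1.78 and 2.05 in the SRAKO hearts, against 4.40, 6.31 and 4.23 in the WT hearts, so each SRAKO heart was below each WT heart. Transcript of the gene was still measured in SRAKO, at a mean of 1.93 ± 0.139 against 4.98 ± 1.154 in WT, and its log2 difference of -1.01 was not called (limma, Benjamini-Hochberg adjusted p = 0.258). Heart muscle markers such as Myh6 and Tnnt2 were abundant in every sample, with 6 of 6 cardiomyocyte markers tested and a summed FPKM of 9021 to 9162 in SRAKO and 8503 to 10309 in WT. WT2368 stood apart: it held the lowest value of 44.9% of all tested rows. Its FPKM total over the whole table was the largest, at 594266, against 516817 to 551937 in the other hearts. Summed atrial markers reached 8439 in WT2379, against 2978 to 3509 in SRAKO and 2482 to 3743 in the other WT hearts. Nothing in the labels says that the hearts came from separate litters or days, and p-values therefore measure only the spread between these samples.

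Members that reached an FPKM of 1 in 3 or more of the 6 hearts were tested. By this rule 21 members were tested, 8 Mmp, 4 Timp, 6 Adamts and 3 Adamtsl genes, and 22 were not. Of those 22, 19 stayed below an FPKM of 1 in every heart and 3 (Mmp8, Adamts8 and Adamts9) reached it in 1 or more. The inhibitors were the most abundant class. Timp3 and Timp2 led it, and together they made up 83.8% ± 1.18 of the summed Timp FPKM in SRAKO hearts and 82.0% ± 1.09 in WT hearts (SD, n = 3 each). Mmp2 led the proteases, with 38.6% ± 3.80 of the summed Mmp FPKM in SRAKO and 43.4% ± 2.57 in WT. That sum takes Mmp14 from its row of higher mean, described below. Adamtsl4 and Adamtsl5 came next to Mmp2, above every protease of the ADAMTS class, and Adamts10 and Adamts1 led that class. FPKM is scaled by transcript length, so these levels can be set side by side between genes.

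**Figure D1:**
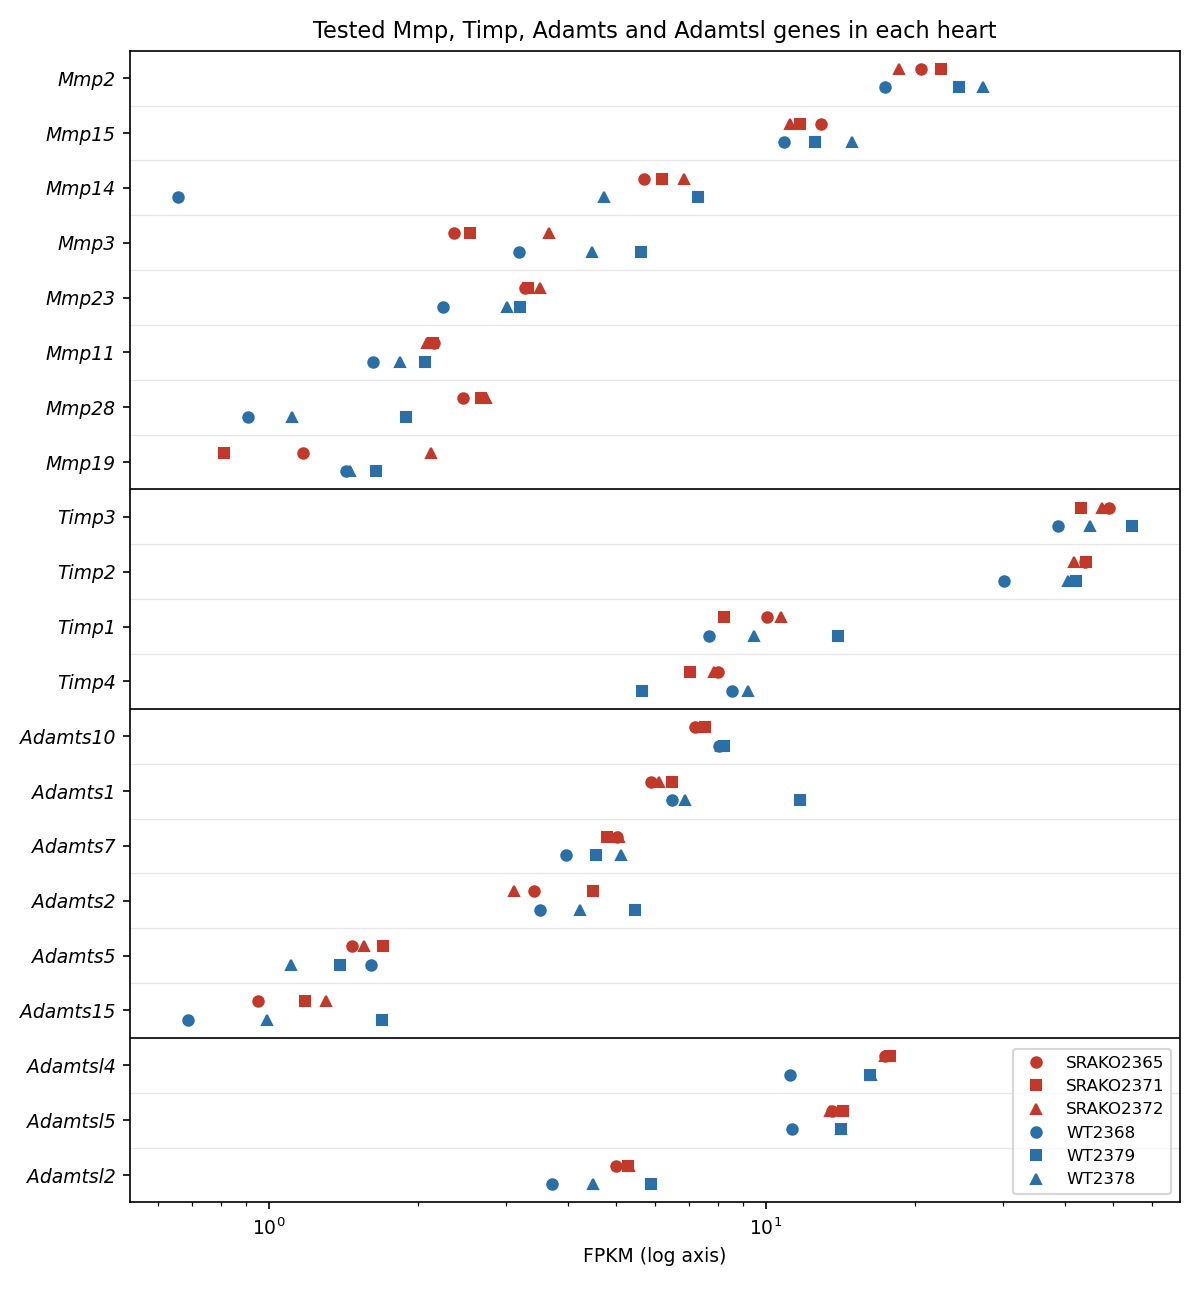
FPKM on a log axis (horizontal) of the 21 tested genes (vertical, grouped by class and ordered by mean level), with SRAKO hearts in red above WT hearts in blue and a marker shape for each heart. Timp3 and Timp2 lie furthest right, the 3 SRAKO values of Mmp28 all lie right of the WT values, and the lone Mmp14 point on the left is WT2368 at 0.656.

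No member passed the test between genotypes. Of the 21 tested, 0 were called by limma on log2(FPKM + 1) with Benjamini-Hochberg adjustment over all 10201 tested rows, where the share of all rows called was 0.0196%. Each of the 21 had an adjusted p of 0.999. Without adjustment 2 members had a p under 0.05, Mmp28 and Mmp3, beside 3.46% of all rows. Mmp28 was the higher one, beside 1.9% of all rows, and Mmp3 the lower one, beside 1.56%. The median log2 difference, SRAKO minus WT, was 0.04 over the 21 members and 0.01 over all tested rows. Of the members 12 were above 0 and 9 below, and of all tested rows 53.5% were above 0. By class the medians were 0.03 for Mmp, 0.01 for Timp, -0.04 for Adamts and 0.14 for Adamtsl genes.

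The hearts of the genotypes did not overlap for 6 of the 21, beside 8.05% of all rows. For Mmp28, Mmp23, Mmp11 and Adamtsl4 every SRAKO value exceeded every WT value, beside 4.28% of all rows. For Adamts10 and Adamts1 every SRAKO value lay below every WT value, beside 3.76% of all rows. An exact two-sided permutation test of 3 hearts against 3 cannot give a p below 0.1, and that is what such a gene reaches. WT2368 was the lowest heart for 14 of the 21 tested members, beside 44.9% of all rows, and the highest for 0, beside 10.5% of all rows.

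**Figure D2:**
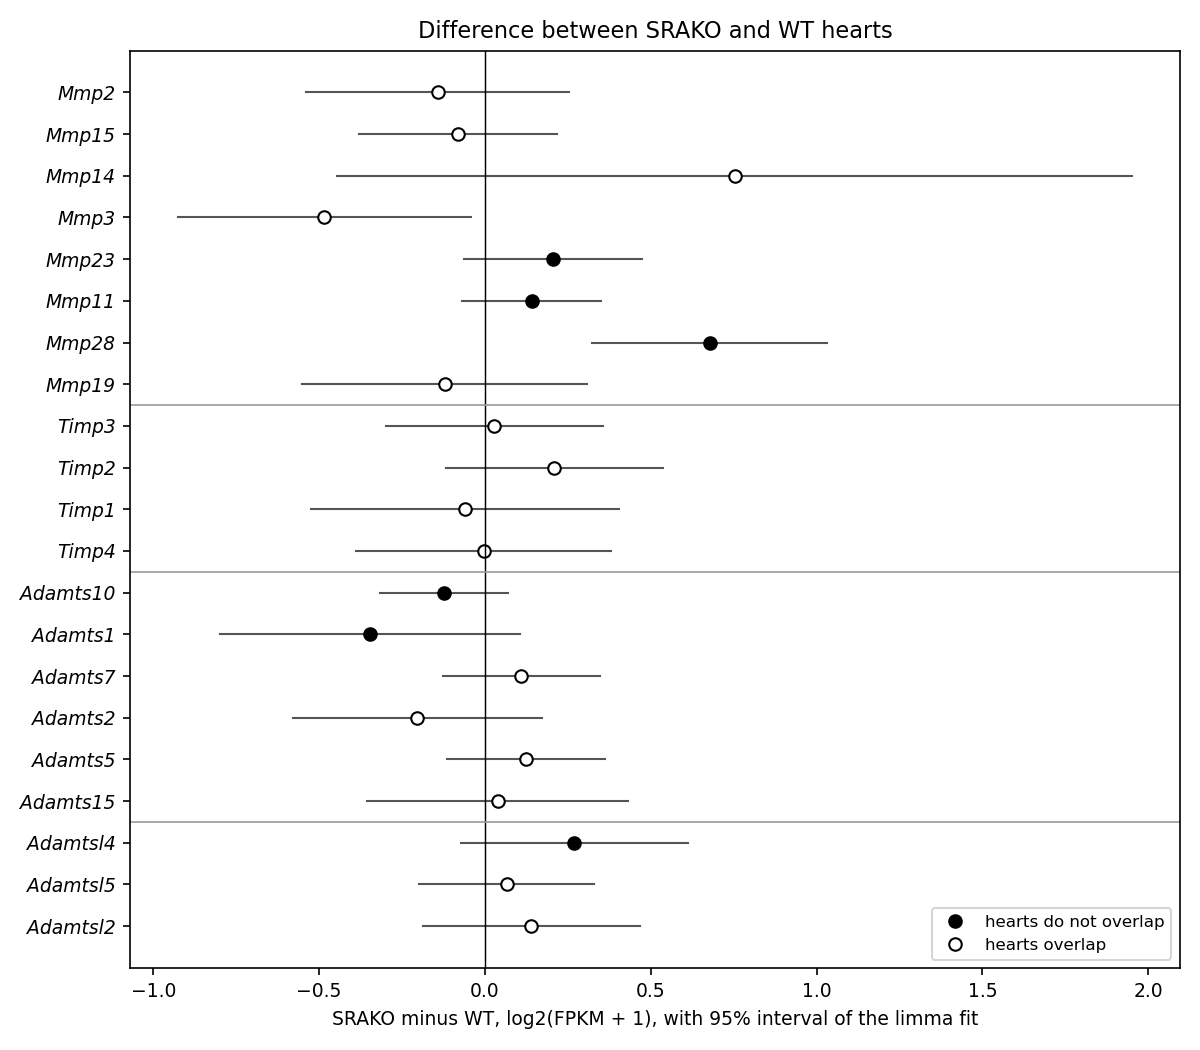
Log2 difference on the log2(FPKM + 1) scale, SRAKO minus WT (horizontal), of the 21 tested genes (vertical, by class), with the 95% interval of the limma fit as a line. Filled points mark the 6 genes whose hearts did not overlap, and the intervals of Mmp28 (0.32 to 1.03) and Mmp3 (-0.93 to -0.04) are those that leave out 0.

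Mmp28 showed the smallest p of the family. It encodes epilysin, a secreted metalloproteinase activated by furin-type proteases and described in skin, macrophages and heart. SRAKO2365, SRAKO2371 and SRAKO2372 had 2.46, 2.68 and 2.74 FPKM, and WT2368, WT2379 and WT2378 had 0.906, 1.89 and 1.11. The SRAKO hearts lay close together, and the highest WT heart, WT2379, stayed below all of them. Mean FPKM was 2.63 ± 0.149 in SRAKO and 1.302 ± 0.515 in WT (SD, n = 3 each), a ratio of 2.02. The log2 difference came to 0.68 (SE 0.15; limma, unadjusted p = 0.00239, Benjamini-Hochberg adjusted p = 0.999). With 1 heart left out at a time it ran from 0.55 to 0.85, and without WT2379 the adjusted p in limma was 0.12. That was the lowest of the 17 members that were followed, over the settings in which each was fitted. Mmp28 was not fitted with a filter at an FPKM of 5. The gene spans positions 83440768 to 83463071 of chromosome 11 (GRCm38, minus strand), and all 5 transcripts of its row are annotated Mmp28 transcripts. An opposite-strand gene, 1700020L24Rik, overlaps it and was at 1.09, 0.928 and 0.797 FPKM in SRAKO and 0.534, 0.718 and 1.31 in WT; the labels do not say that strand was recorded. Macrophage and monocyte markers summed to 238 to 262 FPKM in SRAKO and 197 to 236 in WT, where WT2368 was the lowest. Of 10 tested markers 9 were above WT in mean, beside 53.5% of all tested rows. The part of macrophages and monocytes in the Mmp28 values was not tested. In bulk tissue fewer cells of a type and less RNA per cell cannot be told apart.

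Mmp3 was the other gene under an unadjusted p of 0.05, in the opposite direction. It encodes stromelysin-1, a secreted protease of fibroblasts that cuts proteoglycans, fibronectin and other Mmp proenzymes. It was at 2.36, 2.54 and 3.66 FPKM in SRAKO2365, SRAKO2371 and SRAKO2372, and at 3.19, 5.61 and 4.48 in WT2368, WT2379 and WT2378. The groups overlapped, since SRAKO2372 was above WT2368. Means were 2.85 ± 0.702 in SRAKO and 4.43 ± 1.21 in WT, giving a log2 difference of -0.48 (SE 0.19; limma, unadjusted p = 0.0354, Benjamini-Hochberg adjusted p = 0.999). Leaving out 1 heart gave -0.66 to -0.33. Mmp3 sits on chromosome 9 from 7445822 to 7455975, in a cluster with other members. Of the 43 members, Mmp12, Mmp13, Mmp8 and Mmp27 lie nearest to it, with gaps of 76.3 kb to Mmp12 and 102.5 kb to Mmp8. Genes outside the 43 that may lie in these gaps were not looked for. Mmp12, Mmp13 and Mmp27 stayed under 0.225 FPKM in every heart and were not tested.

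Promoters of Mmp28, Mmp3 and Adamts1 are shown because they are the genes with the smallest p and the largest lower value without overlap, and because their sequences differ in kind. They come from RefSeq on GRCm38.p6 and run from 250 bases before the start of the gene to 50 after it, 5′ to 3′ on the strand of the gene. Capitals mark matches on either strand to any of 5 letter patterns: TGANTCA (the AP-1 element), GGGCGG (the GC box bound by SP1), AGGAAG (an ETS element), TATAAA (the TATA box) and TGTTCT (the half-site of steroid receptors of the glucocorticoid type).
Mmp28, chr11:83462991-83463290, minus strand: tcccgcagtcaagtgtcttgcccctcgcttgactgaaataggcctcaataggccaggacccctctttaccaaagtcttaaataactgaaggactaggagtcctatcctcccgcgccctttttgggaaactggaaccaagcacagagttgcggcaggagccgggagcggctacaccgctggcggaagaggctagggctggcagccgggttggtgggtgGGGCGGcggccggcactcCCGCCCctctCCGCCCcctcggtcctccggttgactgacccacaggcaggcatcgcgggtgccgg
Mmp3, chr9:7445572-7445871, plus strand: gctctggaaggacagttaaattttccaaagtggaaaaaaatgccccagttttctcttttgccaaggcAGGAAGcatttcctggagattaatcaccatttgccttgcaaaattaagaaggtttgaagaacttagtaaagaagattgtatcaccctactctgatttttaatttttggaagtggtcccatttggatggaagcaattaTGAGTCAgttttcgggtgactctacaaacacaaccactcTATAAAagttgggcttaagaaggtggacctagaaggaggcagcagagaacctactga
Adamts1, chr16:85803064-85803363, minus strand: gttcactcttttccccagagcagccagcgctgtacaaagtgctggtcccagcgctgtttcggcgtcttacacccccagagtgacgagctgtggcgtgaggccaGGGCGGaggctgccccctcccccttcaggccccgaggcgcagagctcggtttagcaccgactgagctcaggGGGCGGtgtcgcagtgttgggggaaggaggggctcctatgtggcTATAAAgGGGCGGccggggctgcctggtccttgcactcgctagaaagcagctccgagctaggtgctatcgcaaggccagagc
The Mmp28 window holds 3 GC boxes and none of the other patterns. The Mmp3 window holds 1 AP-1 element that begins 46 bases before the start, 1 ETS element and 1 TATA box, and no GC box. Adamts1 has 3 GC boxes, of which 1 directly follows the single base after its TATA box. Promoters in the table matched 29 of the 43 members, 15 of them tested. A GC box was found for 20 of the 29 and for 13 of the 15 tested, against 35.7% of all 32851 promoters of the same length. The AP-1 letters were found for 3 of the 29, Mmp3, Mmp12 and Mmp13, against 7.81% of all promoters. A TATA box was found for 7 of the 29 against 13.6%, an ETS element for 11 of the 29 against 35.4%, and the receptor half-site for Mmp11, Mmp12 and Mmp23 against 19.0%. These are matches of letters in 1 window and say nothing of binding.

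Among the gelatinases, which cut denatured collagen and basement membrane, Mmp2 was the abundant one. SRAKO2365, SRAKO2371 and SRAKO2372 had 20.5, 22.5 and 18.6 FPKM, and WT2368, WT2379 and WT2378 had 17.3, 24.5 and 27.4. The SRAKO values fell inside the WT range. The log2 difference came to -0.14 (SE 0.17), with a 95% interval from -0.54 to 0.25, and it was -0.33 without WT2368 and -0.012 without WT2378. Mmp9, the gelatinase stored in neutrophil granules, was far lower and was not tested. It was at 0.148, 0.342 and 0.872 FPKM in SRAKO2365, SRAKO2371 and SRAKO2372, and at 0.194, 0.201 and 0.0791 in WT2368, WT2379 and WT2378.

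Mmp8, the neutrophil collagenase, was below the filter as well, and its highest value was again SRAKO2372. It was at 0.0939, 0.443 and 1.31 FPKM in SRAKO2365, SRAKO2371 and SRAKO2372, and at 0.0282 and 0.290 in WT2368 and WT2379, while WT2378 was listed at 0. The order of the hearts for Mmp8 was the order of the summed neutrophil markers, which were 3.41, 33.8 and 68.7 FPKM in SRAKO2365, SRAKO2371 and SRAKO2372 and 1.89, 13.2 and 1.28 in WT2368, WT2379 and WT2378. That list had 11 markers without Mmp8, of which 10 have a row and 4 (S100a8, S100a9, Retnlg and Ngp) were tested, all 4 above WT in mean. Ly6g was listed at 0 in 4 of the 6 hearts and was at 0.504 in SRAKO2372 and 0.0513 in WT2379. Mpo was listed at 0 in 5 hearts and was at 0.0306 in SRAKO2371. The part of neutrophils in the Mmp8 and Mmp9 values was not tested. Mmp13, the other collagenase, had at most 0.224 FPKM, in WT2379.

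**Figure D3:**
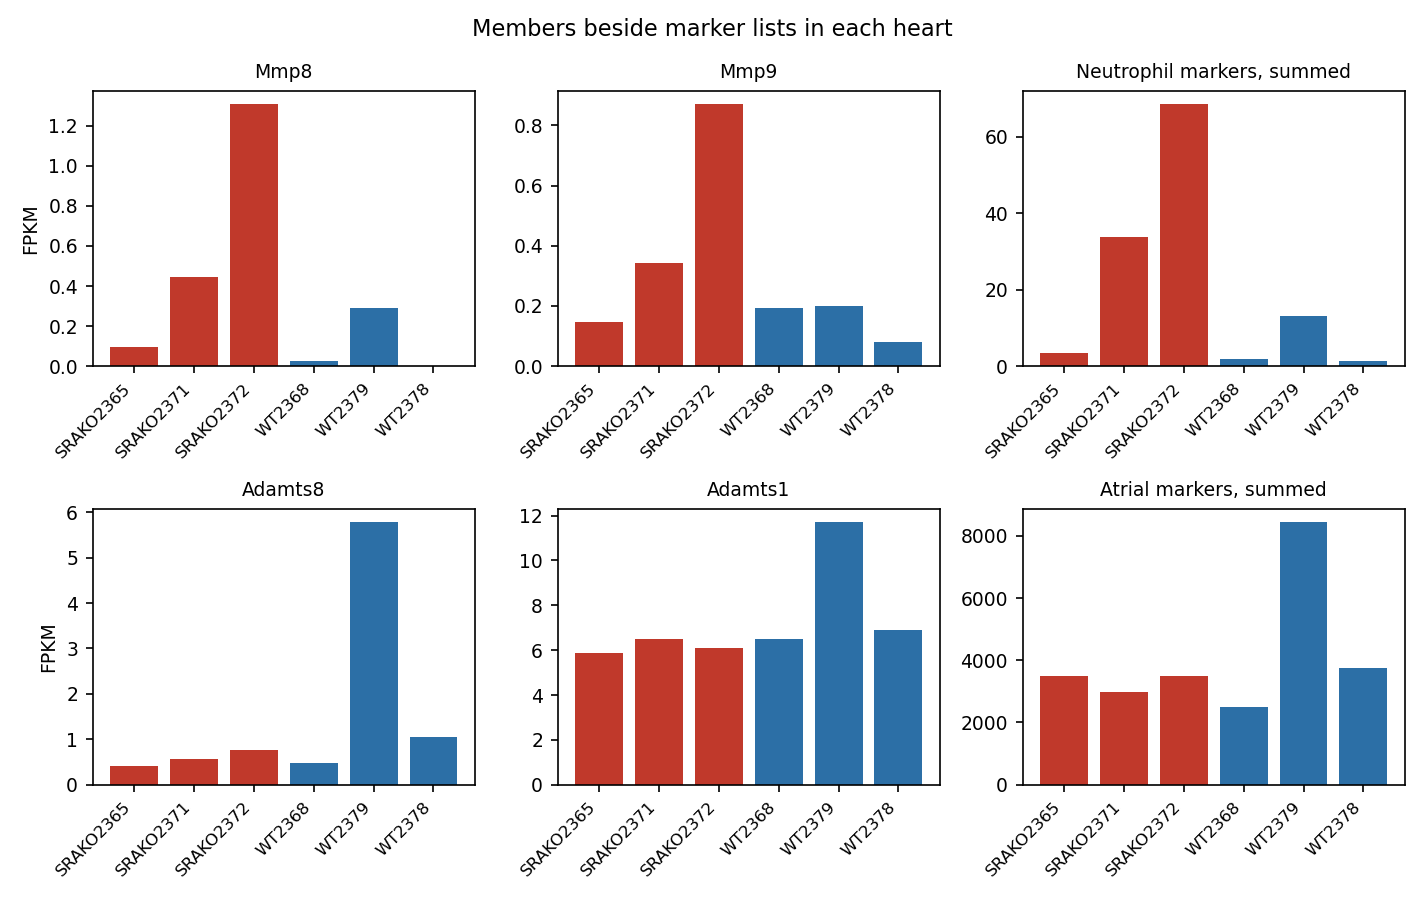
FPKM (vertical) in each heart (horizontal, SRAKO in red left of WT in blue) of Mmp8, Mmp9 and summed neutrophil markers in the top row, and of Adamts8, Adamts1 and summed atrial markers in the bottom row. SRAKO2372 is the highest bar of each top panel, at 1.31, 0.872 and 68.7, and WT2379 is the highest bar of each bottom panel, at 5.78, 11.7 and 8439.

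Membrane-type Mmp enzymes are anchored at the cell surface. Mmp14, or MT1-MMP, cuts collagen I and, held by Timp2, activates the Mmp2 proenzyme. The table lists Mmp14 in 2 rows, and they differ in how they behave. The row with the higher mean holds 1 assembled transcript and no annotated one. It was at 5.68, 6.19 and 6.86 FPKM in SRAKO2365, SRAKO2371 and SRAKO2372, and at 0.656, 7.32 and 4.74 in WT2368, WT2379 and WT2378. WT2368 was far below every other heart, with a WT mean of 4.24 ± 3.36, against 6.25 ± 0.593 in SRAKO. The log2 difference came to 0.75 (SE 0.52), and it was 0.07 without WT2368 and 1.23 without WT2379. The other row holds 5 annotated transcripts of the gene on chromosome 14 from 54431612 to 54445364. There the hearts were at 2.34, 2.49 and 2.63 FPKM in SRAKO2365, SRAKO2371 and SRAKO2372 and at 2.19, 2.88 and 2.39 in WT2368, WT2379 and WT2378. On that row SRAKO averaged 2.49 ± 0.141 and WT 2.49 ± 0.357, and their log2 difference was 0.00 (SE 0.10). The summed rows gave 0.46. WT2368 was the lowest heart in both rows, far below the others in the assembled row and just below them in the annotated row.

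**Figure D4:**
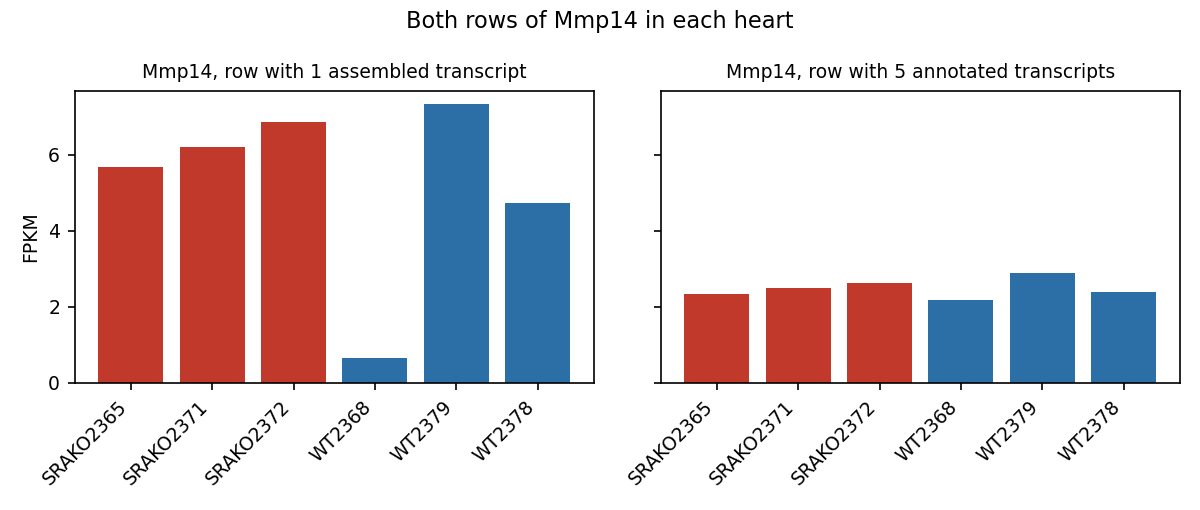
FPKM (vertical) of both table rows of Mmp14 in each heart (horizontal, SRAKO in red left of WT in blue). WT2368 is at 0.656 in the row with the assembled transcript and at 2.19 in the row with the annotated transcripts, where the other hearts lie between 2.34 and 2.88.

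Mmp15, or MT2-MMP, was the most abundant membrane-type gene. It had 12.9, 11.7 and 11.2 FPKM in SRAKO2365, SRAKO2371 and SRAKO2372 and 10.9, 12.6 and 14.9 in WT2368, WT2379 and WT2378, with groups that overlapped and a log2 difference of -0.08 (95% interval from -0.38 to 0.22). The other membrane-type genes, Mmp17, Mmp16, Mmp24 and Mmp25, did not reach an FPKM of 1. Mmp17 was the highest of them, at 0.609 ± 0.146 in SRAKO and 0.576 ± 0.0762 in WT.

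Mmp23 and Mmp11 were higher in each SRAKO heart by narrow margins. Mmp23, a short metalloproteinase anchored by its propeptide, was at 3.27, 3.33 and 3.52 FPKM in SRAKO and at 2.24, 3.21 and 3.01 in WT. The gap between the lowest SRAKO heart and the highest WT heart was small beside the WT range, and the log2 difference of 0.20 (SE 0.12, unadjusted p = 0.117 in limma) was 0.09 without WT2368. Mmp11, or stromelysin-3, is activated inside the cell by furin. It was at 2.15, 2.14 and 2.08 FPKM in SRAKO2365, SRAKO2371 and SRAKO2372 and at 1.62, 2.06 and 1.84 in WT2368, WT2379 and WT2378, a log2 difference of 0.14 (SE 0.09) that was 0.084 without WT2368. Chchd10, a mitochondrial protein gene that is abundant in heart, overlaps Mmp11 on the opposite strand and was at 169 to 180 FPKM in SRAKO and 121 to 166 in WT. The overlap was taken from whole gene spans, and shared exons were not looked for. Only reads in bases that such a pair shares cannot be told apart without strand. Mmp19, a secreted protease of basement membrane proteins, varied more among SRAKO than among WT hearts, at 1.37 ± 0.675 in SRAKO and 1.51 ± 0.117 in WT. The remaining Mmp genes, Mmp12, Mmp21 and Mmp27, stayed under 0.175 FPKM.

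All 4 Timp genes were tested, and none passed. Timp1, the inhibitor that inflammation and growth factors induce, was at 10.1, 8.26 and 10.7 FPKM in SRAKO2365, SRAKO2371 and SRAKO2372 and at 7.68, 14.0 and 9.48 in WT2368, WT2379 and WT2378. The SRAKO values lay within the WT range, and the 95% interval of the log2 difference, -0.06, ran from -0.52 to 0.40. Timp2, which both blocks Mmp2 and brings it to Mmp14, was at 43.9, 44.1 and 41.6 in SRAKO and at 30.2, 42.0 and 40.6 in WT. The groups overlapped, WT2368 lay far below the other hearts, and the log2 difference of 0.21 was 0.06 without it. Timp3, the inhibitor bound to matrix, was at 49.0, 43.2 and 47.6 in SRAKO and 38.7, 54.6 and 44.9 in WT, a log2 difference of 0.03. Timp4, known for its high level in heart, was at 8.03, 7.03 and 7.86 in SRAKO and at 8.54, 5.64 and 9.21 in WT, a log2 difference of -0.00 (95% interval from -0.39 to 0.38). WT2379 had the lowest Timp4 of all hearts and the highest Timp1 and Timp3. Timp1, Timp3 and Timp4 lie on the opposite strand within Syn1, Syn3 and Syn2, whose FPKM was at most 1.004 in any heart.

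Summed over each class, the genotypes overlapped for all 4 classes. Mmp genes summed to 53.2 ± 1.33 FPKM in SRAKO and 53.3 ± 12.1 in WT, and Timp genes to 107 ± 4.27 in SRAKO and 102 ± 15.7 in WT. Adamts genes summed to 27.9 ± 1.11 in SRAKO and 33.4 ± 7.39 in WT, and Adamtsl genes to 37.3 ± 0.752 in SRAKO and 33.2 ± 5.60 in WT. The ratio of summed Timp to summed Mmp, a common index of the balance between inhibitor and enzyme, was 2.15, 1.905 and 1.99 in SRAKO2365, SRAKO2371 and SRAKO2372 and 2.16, 1.92 and 1.73 in WT2368, WT2379 and WT2378. The Mmp sums, the ratio and the Mmp2 share take Mmp14 from its assembled row. That row was at 0.656 FPKM in WT2368 and 4.74 to 7.32 in the other hearts. They were not recomputed with the annotated row, and the order of the hearts may depend on that choice. The SD was smaller among SRAKO hearts than among WT hearts for 19 of the 21 tested members, and for 67.5% of all tested rows.

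**Figure D5:**
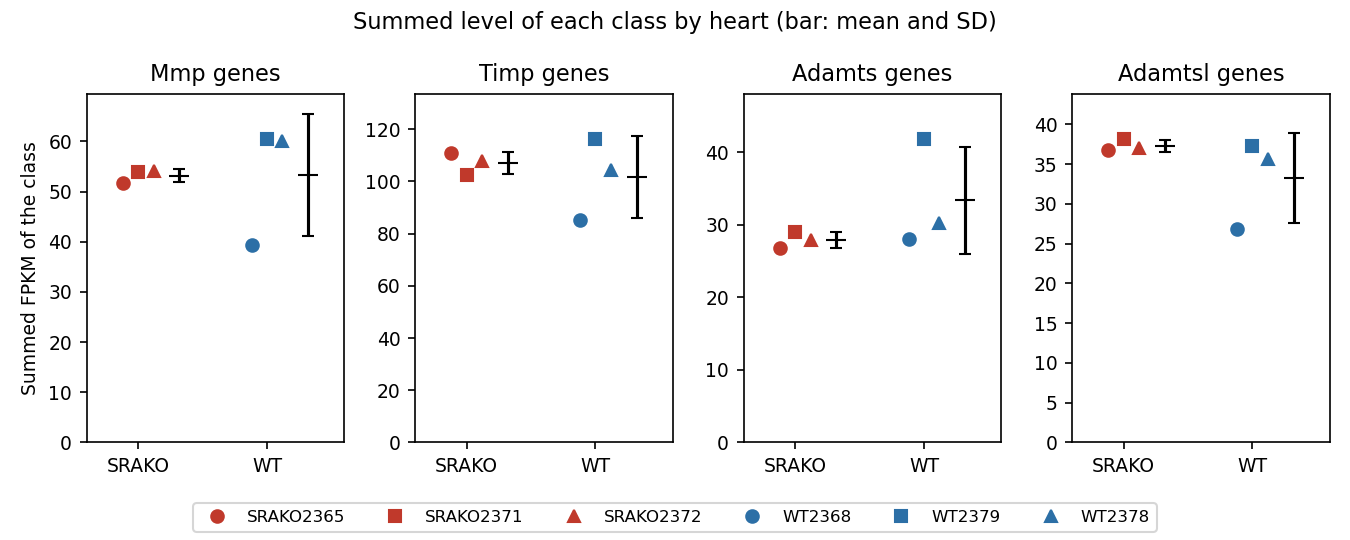
Summed FPKM (vertical, from 0) of the Mmp, Timp, Adamts and Adamtsl genes in each heart, SRAKO in red left of WT in blue, with the mean and SD as a black bar. WT2368 is the lowest point for Mmp (39.4), Timp (85.1) and Adamtsl (26.8), and WT2379 the highest for Adamts (41.8).

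Of the proteoglycan-cleaving ADAMTS genes, Adamts1, Adamts8 and Adamts15 were highest in WT2379. Adamts1, an inducible protease of versican and aggrecan, was at 5.87, 6.48 and 6.11 FPKM in SRAKO2365, SRAKO2371 and SRAKO2372 and at 6.49, 11.7 and 6.90 in WT2368, WT2379 and WT2378. The groups did not overlap, though SRAKO2371 and WT2368 were nearly equal. Means were 6.15 ± 0.306 in SRAKO and 8.37 ± 2.90 in WT, a log2 difference of -0.35 (SE 0.19; limma, unadjusted p = 0.114), and -0.11 without WT2379. Adamts8, named here after its values were seen, was below the filter at 0.405, 0.562 and 0.758 FPKM in SRAKO and 0.472 and 1.05 in WT2368 and WT2378, but was at 5.78 in WT2379. Its neighbour Adamts15, 20.1 kb away on chromosome 9, was also highest in WT2379, at 1.69 FPKM, against 0.951 to 1.31 in SRAKO and 0.688 and 0.994 in WT2368 and WT2378. WT2379 was the highest heart for 9 of the 21 tested members and for 26.5% of all rows. Of the atrial markers, 5 of 5 were highest in WT2379, with Nppa at 6576 FPKM there, against 1829 to 2436 in SRAKO and 1651 and 2469 in WT2368 and WT2378. Nppa was the largest part of the summed atrial markers in every heart. Myl7, the next largest, was at 1195 in WT2379, against 721 to 895 in SRAKO and 593 and 920 in WT2368 and WT2378. The part of atrial cells in the Adamts1 and Adamts8 values was not tested. Adamts5, another aggrecan protease and a neighbour of Adamts1, was at 1.57 ± 0.113 in SRAKO and 1.37 ± 0.248 in WT. Adamts9 and Adamts4, also named after their values were seen and not tested, were lower in each SRAKO heart, beside 3.59% of all rows without a filter. Adamts9 was at 0.670 ± 0.222 in SRAKO and 1.01 ± 0.156 in WT, and Adamts4 at 0.0571 ± 0.00948 in SRAKO and 0.0940 ± 0.0327 in WT. Adamts20 stayed at or below 0.0312 FPKM.

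The procollagen N-propeptidases, which remove the amino-terminal propeptide of fibrillar collagens, were represented by Adamts2. It was at 3.67 ± 0.720 FPKM in SRAKO and 4.40 ± 0.990 in WT, a log2 difference of -0.20 (SE 0.16). Adamts3 was lower in each SRAKO heart (beside 3.59% of all rows without a filter), at 0.382 ± 0.0376 in SRAKO and 0.525 ± 0.115 in WT, and was not tested. Adamts14 was at 0.317 ± 0.0626 in SRAKO and 0.291 ± 0.0586 in WT. Among 13 tested genes of collagen maturation 9 were below and 4 above WT, with a median log2 difference of -0.15 and 0 called. They included the prolyl hydroxylase P4ha1 at 7.03 ± 0.459 in SRAKO and 8.99 ± 1.57 in WT, Col5a2 at 4.25 ± 0.331 in SRAKO and 5.37 ± 0.910 in WT, the crosslinking oxidase Loxl2 at 3.22 ± 0.619 in SRAKO and 4.32 ± 0.909 in WT, and Col3a1 at 13.7 ± 4.31 in SRAKO and 18.7 ± 3.32 in WT. P4ha1 and Col5a2 were lower in each SRAKO heart, the 2 of the 13 without overlap, beside 3.76% of all rows.

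Adamts10 had the highest mean of the ADAMTS proteases over all 6 hearts and in SRAKO hearts, while Adamts1 had the higher mean in WT hearts. Its values were tight in both genotypes. It binds fibrillin-1 in microfibrils. SRAKO2365, SRAKO2371 and SRAKO2372 had 7.19, 7.55 and 7.47 FPKM, and WT2368, WT2379 and WT2378 had 8.07, 8.23 and 8.15. Each SRAKO heart was below each WT heart, and WT2368 did not stand apart here. The log2 difference was small, -0.12 (SE 0.08; limma, unadjusted p = 0.177), and ran from -0.14 to -0.11 with 1 heart left out. Adamts7, a protease of cartilage oligomeric matrix protein known from vascular smooth muscle, was at 5.01, 4.79 and 5.07 in SRAKO and 3.96, 4.56 and 5.11 in WT, with groups that overlapped and a log2 difference of 0.11 (95% interval from -0.13 to 0.35). Without WT2368 it was 0.032, and without WT2378 it was 0.18. Of the other members of these groups, Adamts6, Adamts19, Adamts17 and Adamts12 stayed below an FPKM of 0.58 in every heart.

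The ADAMTS-like genes had a median log2 difference of 0.14 over 3 genes, which is the value of Adamtsl2 itself. Adamtsl4, which binds fibrillin-1 and is needed for the fibres that hold the lens, was at 17.4, 17.8 and 17.4 FPKM in SRAKO2365, SRAKO2371 and SRAKO2372 and at 11.2, 16.2 and 16.3 in WT2368, WT2379 and WT2378. The groups did not overlap, and WT2368 lay far below the other hearts. Means were 17.5 ± 0.226 in SRAKO and 14.6 ± 2.91 in WT, a log2 difference of 0.27 (SE 0.15; limma, unadjusted p = 0.106), and 0.10 without WT2368. Adamtsl5 was at 13.6, 14.3 and 13.4 in SRAKO and at 11.3, 14.2 and 14.2 in WT, and Adamtsl2 at 5.00, 5.29 and 5.32 in SRAKO and 3.71, 5.88 and 4.49 in WT. Both overlapped between genotypes, with log2 differences of 0.07 for Adamtsl5 and 0.14 for Adamtsl2. The Adamtsl2 difference was 0.012 without WT2368 and 0.29 without WT2379. Adamtsl3 and Adamtsl1 stayed below an FPKM of 0.75.

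Genes that act on or with these proteases were read from lists of the same pathway, and 0 members of any list passed limma with Benjamini-Hochberg adjustment. Of all tested rows, 53.5% were above WT. Of 14 tested activators, receptors and inhibitors of matrix proteases, 9 were above and 5 below WT, with a median log2 difference of 0.05. Spock2, a testican proteoglycan, was at 13.2 ± 2.76 FPKM in SRAKO and 9.21 ± 2.04 in WT, and Papln, a relative of the ADAMTS-like genes, at 1.02 ± 0.324 in SRAKO and 1.47 ± 0.153 in WT. The convertase Pcsk6 was at 9.54 ± 0.516 in SRAKO and 8.46 ± 1.41 in WT. Spock2 and Papln had an unadjusted p under 0.05 in limma, 1 in each direction, beside 1.9% of all rows higher and 1.56% lower. The hearts of the genotypes overlapped for both genes. For the 7 tested ADAM sheddases the median was -0.08, with 3 above and 4 below WT, and Adam10, the one with the smallest p, was at 3.402 ± 0.207 in SRAKO and 3.89 ± 0.364 in WT.

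Other matrix proteases had 7 of 8 tested genes above WT and a median log2 difference of 0.06. Htra3, a secreted serine protease, was at 26.7 ± 1.72 FPKM in SRAKO and 21.1 ± 3.31 in WT (limma, unadjusted p = 0.0371, Benjamini-Hochberg adjusted p = 0.999). It was higher in each SRAKO heart, the only 1 of the 8 without overlap, beside 4.28% of all rows. Cathepsin K, Ctsk, was at 2.10 ± 0.305 in SRAKO and 2.78 ± 0.485 in WT. The 24 tested substrates among proteoglycans, glycoproteins and elastic fibres were split, 11 above and 13 below, with a median of -0.01. Tenascin-X, Tnxb, was at 13.8 ± 0.887 in SRAKO and 11.5 ± 0.893 in WT, and the leucine-rich proteoglycan Prelp at 32.0 ± 2.58 in SRAKO and 25.5 ± 4.74 in WT. Both were higher in each SRAKO heart, the 2 of the 24 without overlap, beside 4.28% of all rows. Decorin, Dcn, was at 101 ± 7.57 in SRAKO and 88.1 ± 7.60 in WT, and fibronectin, Fn1, at 8.82 ± 0.491 in SRAKO and 10.3 ± 1.48 in WT. The 12 tested genes of a list of upstream cytokines and transcription factors had a median of 0.08, with 8 above and 4 below WT. Fos, a subunit of AP-1, was at 4.29 ± 2.14 in SRAKO and 2.06 ± 1.10 in WT (limma, unadjusted p = 0.0582), with hearts that overlapped. Fibroblast markers were 3 above and 7 below WT of 10, with a summed FPKM of 484 to 500.3 in SRAKO and 355 to 516 in WT. Gsn was the largest part of that sum, at 192 in WT2368 and 309 to 320 in the other hearts. Postn, named after its values were seen, was at 6.84 ± 0.212 in SRAKO and 8.66 ± 1.18 in WT. It was lower in each SRAKO heart, the only 1 of the 10 without overlap, beside 3.76% of all rows.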

How the data were processed

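Oligo(dT)-selected RNA was sequenced from 6 hearts, 3 SRAKO and 3 WT, grouped by their sample titles. The authors deposited FPKM values per gene and heart in a single table. Tools named, with no role or order, per the submitters' processing notes are cutadapt 1.9, HISAT2 2.0.4, StringTie 1.3.4d and, without a version, edgeR. The notes name the human build hg38, but the identifiers are mouse, and 99.6% of the 81263 Ensembl transcript identifiers matched GENCODE M21. Gene positions come from that annotation on GRCm38. Of the 43 members, 18 lie on loci assembled by StringTie.

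FPKM holds no read counts, and whole reads were not recovered from low values, so no counting interval is given and precision rests on the spread between hearts. Where a symbol had more than 1 row, the one of highest mean was used, which concerned Mmp14 alone. Rows that reached an FPKM of 1 in 3 or more of the 6 hearts were fitted by genotype on log2(FPKM + 1) with limma 3.58.1 in R 4.3.3, with a variance trend on the mean and a prior of 3.69 degrees of freedom. Tests were two-sided, and Benjamini-Hochberg adjustment ran over all 10201 rows at a threshold of 0.05. Fold changes on this scale understate those of low genes. The code was tested on simulated data. No test was made of any gene list.

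Values in every heart are given for tested members without overlap or with an unadjusted p under 0.05, for the 3 most abundant members of each class, and for Timp1 to Timp4, Mmp2, Mmp3, Mmp8, Mmp9, Mmp14 and Adamts1. Of each pathway list up to 4 genes with the smallest p are named, except 1 that is not reported here. The members and lists were chosen with earlier results of these data known. Alternatives covered the pseudocount, the filter, scaling, heart weights, the variance trend, the row taken for a symbol and the hearts left out. The share of rows whose genotypes do not overlap was computed over the same rows. Annotated family genes beyond the 43 were not analysed here.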

Additional observations from a re-analysis of the deposited data

How the results depend on the processing

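No member was called under any of the 17 settings tried, and the smallest adjusted p of a named member in limma was 0.12, for Mmp28 without WT2379. The filter at an FPKM of 5 left 13 members. Mmp28, Mmp3, Mmp23 and Mmp11 were not among them and could not be called there. Over all rows, 2 were called, against 1 with a pseudocount of 0.1, 1 with a filter at an FPKM of 5, 0 without a filter, 1 without both SRAKO2371 and WT2368, and 0 to 6 with 1 heart left out. The median log2 difference of the tested members ran from -0.04 to 0.12 with 1 heart left out. The count of members higher without overlap, 4 of 21, was 1 of 13 with the filter at 5 (4.22% of all rows). With 1 heart left out it was 4 to 7 of 20 or 21, where 6.25% to 12.6% of all rows were higher without overlap (10.7% where the count was 7, without WT2379). The count lower without overlap, 2 of 21, was 4 of 34 with a filter at 0.1 (4.39% of all rows) and 5 of 43 without a filter (3.59%). It was 7 of 22 without both SRAKO2371 and WT2368, where 26% of all rows were lower without overlap. With 1 heart left out it was 2 to 4 of 20 or 21, where 5.64% to 18.5% of all rows were (18.5% without WT2368, where the count was 4). The settings on overlap and the annotated Mmp14 row were chosen after seeing the data.

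Of 286 log2 differences recomputed for 17 named members, 270 kept their direction and 16 changed it, all among 5 members with differences near 0. Timp3 was -0.000404 after quantile normalization, -0.064 with heart weights and -0.035 without both SRAKO2371 and WT2368, and -0.088 to 0.15 with 1 heart left out. Timp4 was 0.12 with heart weights and 0.12 without both hearts, and -0.19 to 0.12 with 1 left out. Adamtsl5 was -0.013 with heart weights, -0.062 without both, and -0.037 to 0.12 with 1 left out. With 1 heart left out Timp1 ran from -0.24 to 0.16 and Mmp15 from -0.18 to 0.028. The cause was not tested. No paired analysis was possible because no number is shared between hearts of different genotype in the sample titles.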

Other observations

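Cell type markers outside the family gave further values. All 6 tested adipocyte markers had a higher mean in SRAKO, none called, with summed FPKM of 31.7, 265 and 105 in SRAKO2365, SRAKO2371 and SRAKO2372 and 45.8, 34.4 and 62.7 in WT2368, WT2379 and WT2378. All 5 tested erythroid markers had a lower mean in SRAKO, none called, with a median log2 difference of -0.28. Their summed FPKM was 2425, 1070.3 and 1088 in SRAKO2365, SRAKO2371 and SRAKO2372 and 2096, 1801 and 1397 in WT2368, WT2379 and WT2378, so SRAKO2365 was the highest of all hearts. Of 8 smooth muscle and pericyte markers, 7 were above WT in mean, beside 53.5% of all tested rows. Their sums were 348 to 353 in SRAKO and 281 to 360.3 in WT.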
